A study of Mus musculus with 6 samples.

Results

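The genes described here handle iron and haem in macrophages, and 9 of the 32287 features counted in CD169-lineage cells of the mouse lymph node were taken by name. They are the iron exporter ferroportin (Slc40a1), haem oxygenase 1 (Hmox1), biliverdin reductase B (Blvrb), the endosomal haem transporter HRG1 (Slc48a1), the transcription factor Spi-C (Spic), the heavy and light ferritin chains (Fth1 and Ftl1), transferrin receptor 1 (Tfrc) and the phagosomal metal transporter NRAMP1 (Slc11a1). All 9 had UMIs and passed the filter on low counts. The genes were named with earlier results of these data known, and none of them was used to sort the cells into types.

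Macrophages that engulf red cells or dying cells free haem in the phagosome, and HRG1 moves it to the cytosol. Haem oxygenase 1 opens the ring to iron, carbon monoxide and biliverdin, biliverdin reductases make bilirubin and related products, ferritin stores the iron, and ferroportin releases it from the cell. Cells in need of iron take up transferrin through the transferrin receptor. Spi-C is known for its part in making the iron-recycling red pulp macrophages of the spleen.

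The cells came from CD169-Tom mice, whose inguinal lymph nodes were taken and in which a Cre recombinase in the Siglec1 (CD169) locus switches on tdTomato in cells that have expressed CD169 and in their progeny. These mice carry Cd169-Cre and the floxed tdTomato reporter in all groups, are on a C57BL/6J background and were over 6 weeks old. Cells of 2 unimmunized mice and of 2 mice 9 days after immunization with hen egg lysozyme (HEL) each received 1 hashtag antibody, were sorted as CD11b+TOM+, pooled and split over 2 captures. The paper's methods describe HEL joined to an ovalbumin peptide, given in Sigma Adjuvant System after transfer of HEL-binding B cells and OT-II T cells. Its section on this sort names no antigen or adjuvant. CITE-seq reads mRNA and antibody tags of the same cell, and a unique molecular identifier (UMI) marks each captured mRNA molecule once.

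A mouse could be assigned to 12139 cells, 4052 and 4722 in immunized mice 1 and 2 and 2828 and 537 in unimmunized mice 1 and 2. Cells of the immunized mice held more UMIs, with median counts per cell of 9674 and 12727.5 against 5877 and 6280. Marker genes fixed without any of the 9 genes placed 7641 cells in 15 types and left 4498 (37.1%) in none. The mouse is the unit of replication, so UMIs were summed per mouse and type into 57 libraries and given as CPM, the counts scaled to 1e6 UMIs in a library. The tests below treat these libraries as independent, although all libraries of 1 mouse come from 1 animal. Unimmunized mouse 2 gave few cells, and the libraries of tingible body macrophage-like (TBM-like) cells held 7 and 5 cells in the unimmunized mice against 48 and 137 in the immunized mice.

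The 522 medullary sinus macrophage-like (MSM-like) cells were led by Cd209b, Marco, Ccl8 and Timd4, and their 5 gate markers summed to 3538 to 5048 CPM per mouse against at most 433 CPM in any other type. They were shallow, with a median of 2164 UMIs. Surface CD68 was higher on them than on any other type (mean centred log ratio 0.381 to 0.598, below 0 in all others). CD169 antibody was higher on gamma-delta T-like and NK-like cells than on MSM-like cells in every mouse. CD169 protein therefore did not single out this gate. The paper counted MSMs as F4/80-positive, but F4/80 antibody was lower on MSM-like than on TBM-like cells in every mouse. On MSM-like cells it lay at -0.333 and -0.173 in immunized mice 1 and 2 and at -0.201 and -0.632 in unimmunized mice 1 and 2. On TBM-like cells it lay at 0.375, -0.019, 0.090 and -0.399 in the same order. The 197 TBM-like cells were led by C3ar1, Pf4, Ms4a7 and C1qa, C1qb and C1qc, and MSM-like cells also held the TBM markers at 366 to 1153 CPM against 889 to 2212 CPM in TBM-like cells. The names are rebuilt from markers and need not cover the cells the study gave those names. Red cell RNA (5 genes) reached 1 UMI in the 4 MSM-like libraries and 0 in the TBM-like ones. UMIs of this list were most frequent in the B cell-like libraries, with 75 UMIs at 9.80 to 69.6 CPM. No B cell-like library held more than 1 of the 5 genes, so these UMIs do not show red cell RNA as a whole.

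Iron also acts on these mRNAs directly. Iron-regulatory proteins bind a short hairpin, the iron-responsive element, when iron is low. In a 5' UTR the bound protein blocks translation, and in the 3' UTR of the transferrin receptor it protects the mRNA from decay. A search was made for a 6-base CAGTGN loop on a stem of 5 base pairs with the bulged C. In the GENCODE transcript numbered 201 of each gene, it was found for 4 of the 9 genes. Over any transcript, a wider search, it was found for 222 of 21877 protein-coding genes (1.01%). The elements are shown as matches to this pattern, and whether they act in these cells was not tested. Those in a 5' UTR would bear on translation, and only those of Tfrc on an mRNA count. Capitals mark the loop. All are exonic and are written 5' to 3' on the transcript strand, from the GENCODE transcripts on GRCm38.
Slc40a1, 5' UTR, minus strand, chr1:45925465-45925493: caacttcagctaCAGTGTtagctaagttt
Fth1, 5' UTR, plus strand, chr19:9982732-9982760: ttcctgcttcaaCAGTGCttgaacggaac
Ftl1, 5' UTR, minus strand, chr7:45459779-45459807: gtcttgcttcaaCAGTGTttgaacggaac
Tfrc, 3' UTR, plus strand, chr16:32631219-32631247: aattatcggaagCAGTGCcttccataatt
Tfrc, 3' UTR, plus strand, chr16:32631598-32631626: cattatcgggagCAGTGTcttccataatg
Tfrc, 3' UTR, plus strand, chr16:32631663-32631691: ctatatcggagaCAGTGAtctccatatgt
Tfrc, 3' UTR, plus strand, chr16:32631710-32631738: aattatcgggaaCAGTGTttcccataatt
The exporter and both ferritin chains carried 1 element each, and the receptor carried 4. No such hairpin was found in the transcript searched for Hmox1, Blvrb, Slc48a1, Spic or Slc11a1. That says only that these letters were not met there, and their other transcripts are not covered. The counts measure mRNA and not its translation.

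Slc40a1, the only known iron exporter of mammalian cells (chr1:45908068-45926523), was a low-count gene with 2 places of expression. In MSM-like cells it lay at 22.4 CPM (11 UMIs) and 37.8 CPM (2 UMIs) in immunized mice 1 and 2 and at 27.2 CPM (24 UMIs) and 21 CPM (2 UMIs) in unimmunized mice 1 and 2. In neutrophil-like cells it lay at 232 CPM (33 UMIs) and 27.2 CPM (4 UMIs) in immunized mice 1 and 2 and at 106 CPM (13 UMIs) in unimmunized mouse 1, with no such library in unimmunized mouse 2. These neutrophil-like UMIs were spread over cells, 15 of 23 cells in immunized mouse 1 and 10 of 21 in unimmunized mouse 1. The neutrophil-like cells held 6 of 6 neutrophil genes at 58950 to 178900 CPM, but these are the genes of their gate. Ly-6G antibody on them (mean centred log ratio) was 1.358 and -0.832 in immunized mice 1 and 2 and 1.008 in unimmunized mouse 1. Their inflammatory macrophage markers summed to 327 to 4406 CPM, against 4486 to 5397 CPM in inflammatory macrophage-like cells. The MSM markers in them summed to 253, 6.80 and 433 CPM, against 3538 to 5048 CPM in MSM-like cells. These markers were highest in the same 2 libraries in which Slc40a1 was highest. The part of MSM-like RNA in that Slc40a1 level was not tested.

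Elsewhere Slc40a1 was near 0. Of the 53 libraries that were not MSM-like, 35 held no UMI of it, B cell-like, Cd209a dendritic-like and migratory dendritic-like libraries among them. TBM-like cells held 3.53 and 0.496 CPM in the immunized mice and 0 and 142 CPM in the unimmunized mice, and all 7 UMIs of the last value came from 1 of its 5 cells. C1q macrophage-like cells held 3.19, 0.506, 2.62 and 0 CPM in the same order of mice. The mean over mice was 122 ± 103 CPM in neutrophil-like (SD, n = 3), 36.5 ± 70.4 in TBM-like (n = 4) and 27.1 ± 7.63 in MSM-like cells (n = 4), which overlapped one another. The next type in order, type 1 dendritic-like, lay at 2.19 ± 4.39 CPM (n = 4), with no library as high as the lowest MSM-like one.

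Hmox1 (chr8:75093621-75100589), which makes the rate-limiting enzyme of haem breakdown, separated the MSM-like cells from every other type. It lay at 658 and 1153 CPM in the MSM-like cells of immunized mice 1 and 2 and at 482 and 336 CPM in those of unimmunized mice 1 and 2. The highest of the 53 other libraries was 161 CPM, in TBM-like cells of immunized mouse 1, so the groups did not overlap. Inflammatory macrophage-like cells, present only in the immunized mice, held 117 and 155 CPM and neutrophil-like cells 106 to 136 CPM. TBM-like cells held 161 and 106 CPM in the immunized mice and 35.6 and 81.2 CPM (3 and 4 UMIs) in the unimmunized mice.

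Below these, Hmox1 formed a shallow gradient in which neighbouring types overlapped. C1q macrophage-like cells averaged 57.9 ± 33.3 CPM, classical monocyte-like cells 44.1 ± 10.5 and migratory dendritic-like cells 3.62 ± 3.63 CPM (each n = 4), the lowest of all. Since MSM-like cells were shallow, each cell was also thinned to 1000 UMIs. A Hmox1 UMI then remained in 37.0% of MSM-like cells of unimmunized mice (95% exact interval 32 to 42.2%, 54.7% unthinned) and in 52.9% of those of immunized mice (44.7 to 61.1%, 75.8% unthinned). In alpha-beta T-like cells, which should lack it, the thinned share was 1.85% and 0.752%. Median depths were 5424.5 and 7063 UMIs there against 1899 and 2745 in the MSM-like cells. All thinned shares and their intervals pool the cells of a condition and do not measure the spread between mice. Before thinning, 332 and 37 MSM-like cells came from unimmunized mice 1 and 2 and 136 and 17 from immunized mice 1 and 2.

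Blvrb (chr7:27447978-27466144), which reduces biliverdin and flavins, followed with the same leading type. MSM-like cells held 1467 and 1191 CPM in immunized mice 1 and 2 and 710 and 735 CPM in unimmunized mice 1 and 2. Inflammatory macrophage-like cells held 451 and 597 CPM, the latter the highest library outside the MSM-like cells. B cell-like cells came next, at 377, 440, 289 and 395 CPM, and overlapped TBM-like cells at 369, 546, 190 and 304 CPM in the same order of mice.

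The lower range of Blvrb ran through C1q macrophage-like cells (248 ± 127 CPM, n = 4) and the monocyte types to type 1 dendritic-like cells (44.4 ± 18.6 CPM, n = 4). After thinning, 52.5% and 72.5% of MSM-like cells of unimmunized and immunized mice held a Blvrb UMI against 3.70% and 4.51% of alpha-beta T-like cells. Of the 9 genes, 3 had all MSM-like libraries above all 53 others (Hmox1, Blvrb and Ftl1), a pattern met by 1.34% of 14940 genes with at least 10 UMIs.

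Slc48a1 (chr15:97778520-97792692), which carries haem out of the phagolysosome, had levels that overlapped between neighbouring types. MSM-like cells held 77.2 and 18.9 CPM in the immunized mice and 53.3 and 31.5 CPM in the unimmunized mice, on 38, 1, 47 and 3 UMIs. Cd209a dendritic-like cells lay within that range, at 27.2 to 55.3 CPM, as did inflammatory macrophage-like cells at 37.9 and 36.2 CPM. The means ranged from 45.2 ± 25.6 CPM in MSM-like cells to 11.9 ± 8.07 CPM in alpha-beta T-like cells (each n = 4), and every type overlapped its neighbour in that order.

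**Figure D1:**
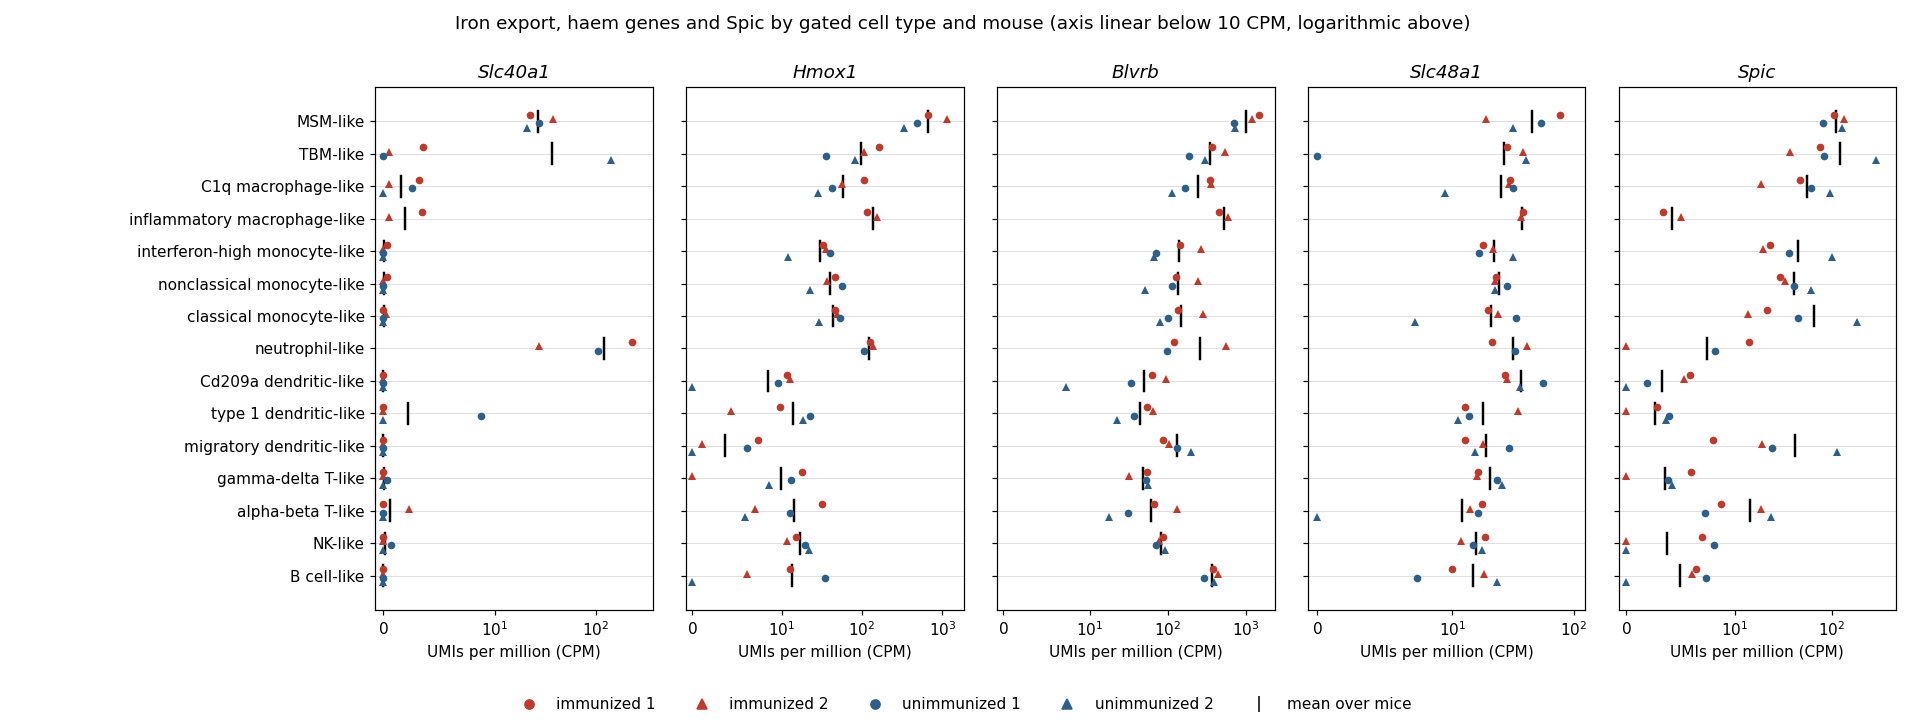
Levels of Slc40a1, Hmox1, Blvrb, Slc48a1 and Spic, in CPM of summed UMIs (linear below 10 CPM and logarithmic above), for each cell type. Each point is 1 mouse, coloured by immunization, and the bar is the mean over mice. All 4 MSM-like points of Hmox1, at 336 to 1153 CPM, and of Blvrb, at 710 to 1467 CPM, lie above every other type.

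Spic (chr10:88674772-88685015) was shared by MSM-like and TBM-like cells. TBM-like cells held 75.9 and 37.2 CPM in immunized mice 1 and 2 and 83.0 and 284 CPM in unimmunized mice 1 and 2, the last on 14 UMIs in 3 of 5 cells. MSM-like cells held 104, 132, 81.7 and 126 CPM in the same order, with a narrower spread (111 ± 23.0 against 120 ± 111 CPM, n = 4 each). Monocyte types and C1q macrophage-like cells carried it too, from 41.1 ± 14.0 CPM in nonclassical monocyte-like cells to 65.3 ± 78.5 CPM in classical ones, whose mean rested on 181 CPM in the 14 cells of unimmunized mouse 2.

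Inflammatory macrophage-like cells stood apart from the other macrophage types in Spic, with 3.44 CPM (1 UMI) and 5.02 CPM (31 UMIs). A Spic UMI was held by 6.77% of their cells before thinning and by 0 of 399 after it, which limits the thinned share to 0.752%. MSM-like cells of unimmunized and immunized mice held one in 19.2% and 31.4% before and 9.94% and 9.80% after thinning. Median depth was 15454 UMIs a cell in the inflammatory cells and 1899 and 2745 UMIs in those MSM-like cells, and the 0 holds for 1000 UMIs a cell only. Limits and intervals cover counting error only.

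Fth1 (chr19:9980598-9985098), the ferritin chain that oxidizes iron for storage, had its highest mean in inflammatory macrophage-like cells, at 28277 and 29938 CPM. MSM-like cells held 20381 and 26844 CPM in immunized mice 1 and 2 and 15217 and 16670 CPM in unimmunized mice 1 and 2. Neutrophil-like cells spread over both, at 13526, 41414 and 7209 CPM. The second of these libraries, the highest of all, came from 9 cells, with Ly-6G antibody at -0.832 against 1.358 and 1.008 in the others. The neutrophil-like mean of 20716 CPM lay between those of inflammatory macrophage-like and MSM-like cells (19778 CPM), and the neutrophil-like libraries overlapped both. TBM-like cells held 11870, 13823, 11073 and 10026 CPM, below every MSM-like library, and overlapped C1q macrophage-like cells at 11543, 11348, 8840 and 6722 CPM. Migratory dendritic-like cells had the lowest mean, 3200 ± 1225 CPM (n = 4).

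Ftl1 (chr7:45457944-45459884), the chain that helps iron to form a core, gave the tightest separation of MSM-like cells. They held 16518, 14632, 15063 and 14413 CPM (mean 15157 ± 947, n = 4), and the highest of the 53 other libraries was 7552 CPM. TBM-like, inflammatory and C1q macrophage-like cells lay close together at 6196 to 7552 CPM, and alpha-beta T-like cells were lowest at 1753 ± 275 CPM (n = 4). Both ferritin genes have near-identical processed copies in the mouse genome, and Ftl1-ps1 is among the features, so their counts are less certain than the others.

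Tfrc (chr16:32608920-32632794), the receptor for iron-loaded transferrin, was low and followed another order. Cd209a dendritic-like cells held 12.6 and 13.9 CPM in the immunized and 29.6 and 43.3 CPM in the unimmunized mice, and B cell-like cells 14.2, 12.1, 24.5 and 23.2 CPM. MSM-like cells, high for the genes above, held 2.03, 0, 7.94 and 0 CPM, which are 8 UMIs in all. TBM-like cells lay at 11.9 to 20.3 CPM on 1 to 30 UMIs a library and inflammatory macrophage-like cells at 17.2 and 14.4 CPM. Every type overlapped its neighbour in order.

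Slc11a1 (chr1:74375195-74386062), which pumps divalent metal out of the phagosome, also left MSM-like cells in the middle of the order. Inflammatory macrophage-like cells held 127 and 142 CPM, neutrophil-like cells 106, 184 and 73.6 CPM, and TBM-like cells 132, 159, 59.3 and 40.6 CPM, of which the last 2 rest on 5 and 2 UMIs. MSM-like cells held 38.6, 37.8, 35.2 and 21 CPM, near the monocyte types. All macrophage, monocyte, neutrophil and type 1 dendritic means (29.2 ± 3.04 CPM for the last, n = 4) lay above those of the lymphoid and other dendritic types, which began at 11.5 ± 8.27 CPM (n = 4).

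**Figure D2:**
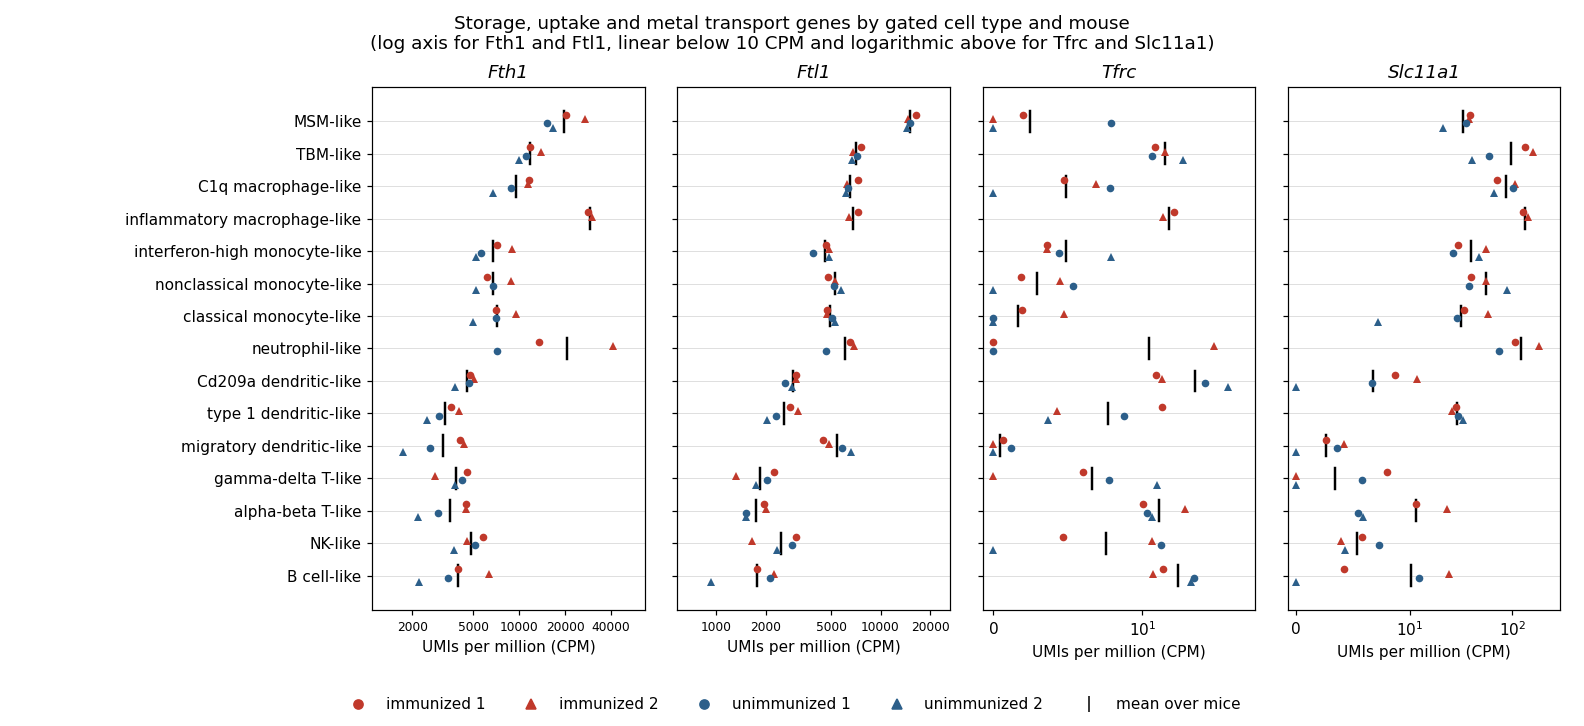
Levels of Fth1 and Ftl1 (logarithmic axis), Tfrc and Slc11a1 in CPM of summed UMIs for each cell type, with 1 point per mouse, coloured by immunization, and a bar at the mean over mice. Ftl1 sets the MSM-like points, 14413 to 16518 CPM, above all others, while in Tfrc and Slc11a1 MSM-like cells lie low or in the middle.

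The first comparison set MSM-like cells against the average of the other types, with each type and each condition given the same weight. Of the 9 genes, 7 were higher in MSM-like cells and none was lower (edgeR quasi-likelihood test on all 10769 genes tested, Benjamini-Hochberg adjusted), where 18.3% of all genes were called higher and 30.3% in either direction. The median log2 fold change was 1.98 over the 9 genes and 0.0025 over all genes. Hmox1 was higher by 4.42 on the log2 scale (SE 0.17, adjusted p = 2.24e-25) and Blvrb by 3.00 (SE 0.17, adjusted p = 4.26e-19). Spic was higher by 2.86 (SE 0.33, adjusted p = 2.22e-09).

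The ferritin chains and the haem transporter also passed. Ftl1 was higher by 1.98 (SE 0.11, adjusted p = 1.41e-18), Fth1 by 1.63 (SE 0.13, adjusted p = 2e-13) and Slc48a1 by 1.46 (SE 0.24, adjusted p = 4.53e-06). The Slc48a1 call rested on single mice, since without immunized mouse 1 its log2 fold change was 0.27 (adjusted p = 1) and without unimmunized mouse 1 it was 1.57 (adjusted p = 0.0636). Slc40a1 passed with a fitted value of 5.76 (adjusted p = 4.3e-07), whose size depends on the prior count because 13 of the groups held no UMI of it. Slc11a1 did not pass (0.71, SE 0.32, adjusted p = 0.0948) and passed with the mouse as a block (0.80, SE 0.28, adjusted p = 0.0236), and Tfrc did not pass (-0.52, adjusted p = 1).

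Of 74 further iron and haem genes, 57 were tested and 15 were higher and 3 lower in MSM-like cells, with a median log2 fold change of 0.237. These 18 of 57 are near the 30.3% called over all genes, so the named genes are given as values and the count is no result about the lists. Cp, the ferroxidase that works with ferroportin, lay at 48.8 and 75.6 CPM in the MSM-like cells of the immunized and 48.8 and 21 CPM in those of the unimmunized mice (24, 4, 43 and 2 UMIs) and was the 1 export partner tested, with a fitted value of 4.04 (adjusted p = 4.38e-09, and 0.08 without unimmunized mouse 1). For Cp, Steap3 and Pcbp4 some groups held no UMI, so the size of these fitted values depends on the prior count. Of 7 uptake genes, 3 were higher, with the endosomal ferrireductase Steap3 at 2.74 (adjusted p = 0.000354) and transferrin, Trf, at 2.25 (SE 0.26, adjusted p = 1.46e-09). Steap3 was at 0.96 (adjusted p = 1) without unimmunized mouse 1 and Trf at 1.59 (adjusted p = 0.144) without immunized mouse 1. Ncoa4, the receptor that delivers ferritin for breakdown, was higher by 2.50 (SE 0.16, adjusted p = 3.18e-17) and the poly(C)-binding protein gene Pcbp4 by 2.45 (adjusted p = 0.00351), 2 of 4 storage genes and chaperones.

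The remaining groups held calls in both directions, higher calls only or none. Of 4 genes of haem capture and breakdown, Blvra and Hmox2 were higher and haptoglobin, Hp, was lower (-1.75, SE 0.59, adjusted p = 0.0192). The Hp call was lost in 7 of 18 other settings, with -1.01 without immunized mouse 1 and -0.48 without unimmunized mouse 1 (adjusted p = 1 for both). Of 13 mitochondrial genes, 4 were higher and 2 lower, among them Cisd2 by -0.64 (SE 0.17, adjusted p = 0.00248), which did not pass without immunized mouse 1 (-0.65, adjusted p = 0.244) or unimmunized mouse 1 (-0.50, adjusted p = 0.215). Haem synthesis had 2 of 9 higher (Urod among them), the iron-responsive regulators 1 of 8 (Aco1), and none of 3 haem transporters, 2 secreted iron-binding proteins or 6 NRF2 targets outside iron handling passed in either direction.

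**Figure D3:**
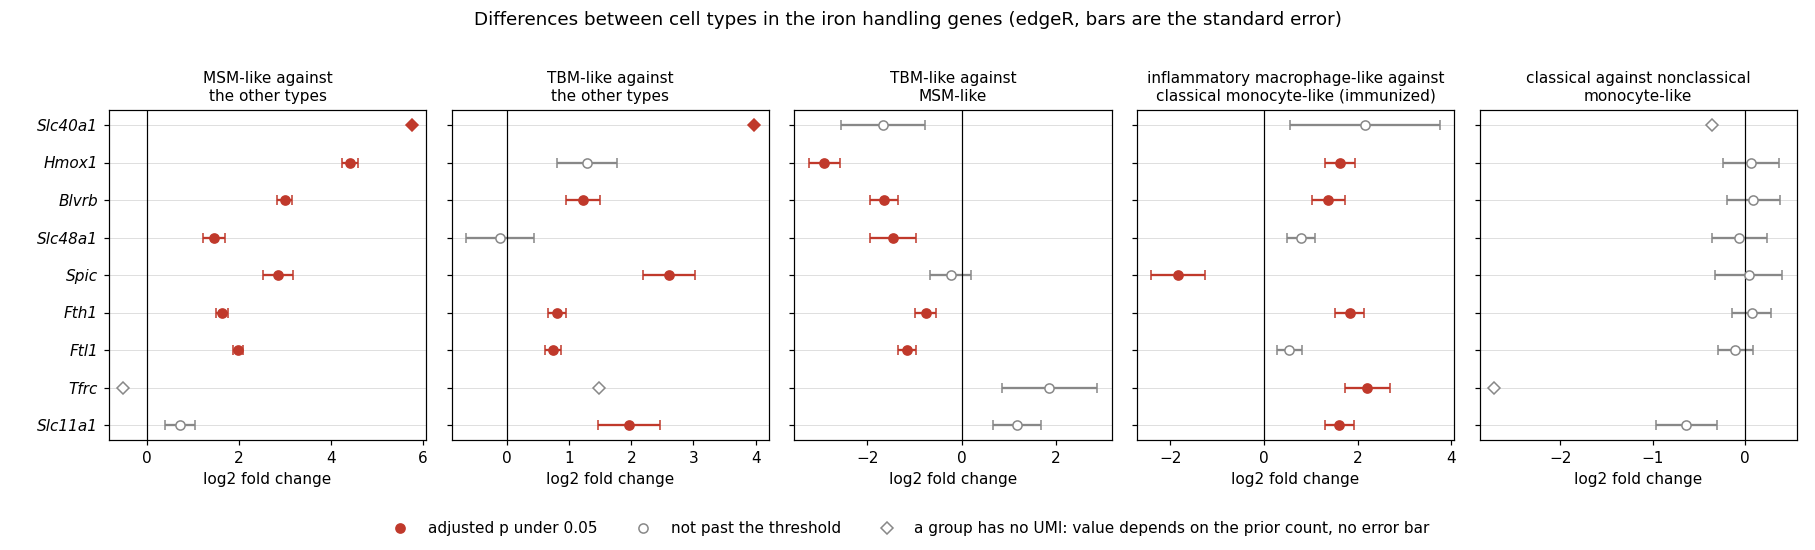
Log2 fold changes of the 9 genes in 5 comparisons between cell types, with bars of 1 SE, filled red where the adjusted p was under 0.05, and diamonds without a bar where a group held no UMI of the gene. In the panel of MSM-like cells against the other types 7 of 9 genes are red to the right of 0, and in that of classical against nonclassical monocyte-like cells none is.

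TBM-like cells, named for the macrophages that clear dying B cells in germinal centres, were set against the other types in the same way, a comparison that shares its libraries with the preceding one. Here 6 of the 9 genes were higher, where 4.49% of all genes were called higher and 6.94% in either direction, and the median was 1.29 against -0.141 over all genes. Spic was higher by 2.60 (SE 0.42, adjusted p = 2.08e-05), Fth1 by 0.81 (SE 0.15, adjusted p = 0.000143) and Ftl1 by 0.73 (SE 0.13, adjusted p = 8.2e-05). Slc11a1 was higher by 1.97 (SE 0.50, adjusted p = 0.00813) and Blvrb by 1.22 (SE 0.27, adjusted p = 0.00234). The sixth, Slc40a1 (3.98, adjusted p = 0.0263), rested on the 1 cell above and turned to -0.57 without unimmunized mouse 2.

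Several of these calls depended on the small unimmunized libraries. Calls were also gained in some other settings. Without unimmunized mouse 1 or 2, 3 of the 9 genes passed, and Blvrb (adjusted p = 0.0706 and 0.182) and Slc11a1 (0.213 and 0.0656) did not. Hmox1 did not pass (1.29, SE 0.48, adjusted p = 0.103) and passed with the mouse as a block (1.37, SE 0.44, adjusted p = 0.0426), while Tfrc (1.47, adjusted p = 0.335) and Slc48a1 (-0.11, SE 0.54, adjusted p = 1) passed in neither. Of the 57 further genes 3 were higher and none lower, a share near the 4.49% of all genes called higher, so the count is no result about the lists. The 3 were Trf (1.99, SE 0.41, adjusted p = 0.000729), the haemopexin-haem receptor Lrp1 (1.79, SE 0.31, adjusted p = 5.76e-05) and Hfe (1.17, adjusted p = 0.0435), which binds the transferrin receptor. Trf did not pass without unimmunized mouse 2 (1.87, adjusted p = 0.0845), nor Hfe without unimmunized mouse 1 (0.86, adjusted p = 0.876).

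Set against MSM-like cells directly, TBM-like cells were lower in 5 of the 9 genes and higher in none, where 8.85% of all genes were called lower and 15.0% in either direction. Hmox1 was lower by -2.91 on the log2 scale (SE 0.33, adjusted p = 2.14e-08), Blvrb by -1.65 (SE 0.30, adjusted p = 8.99e-05) and Slc48a1 by -1.46 (SE 0.49, adjusted p = 0.0349). Ftl1 was lower by -1.16 (SE 0.19, adjusted p = 1.98e-05) and Fth1 by -0.77 (SE 0.22, adjusted p = 0.0111). Spic did not pass (-0.24, SE 0.43, adjusted p = 0.813), nor did Slc40a1 (-1.67, SE 0.89, adjusted p = 0.234), Slc11a1 (1.17, SE 0.51, adjusted p = 0.122) or Tfrc (1.86, SE 1.01, adjusted p = 0.236). Within capture 1 alone, 2 of the 9 genes passed. In some other settings a gene that missed here passed. The Slc48a1 call was lost in 8 of 18 other settings, with -0.25 (adjusted p = 1) without immunized mouse 1 and -0.54 (adjusted p = 0.742) without unimmunized mouse 1, and DESeq2 gave -1.28 (adjusted p = 0.173). Fth1 did not pass without unimmunized mouse 2 (-0.61, adjusted p = 0.179).

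Of the 57 further genes 7 were lower and 3 higher, a share near the 15.0% of all genes called. Cp was lower (adjusted p = 0.0217), at 24.7 and 10.4 CPM in the TBM-like libraries of immunized mice and without a UMI in the unimmunized ones. The iron-sulphur glutaredoxin Glrx5 was lower by -2.42 (SE 0.39, adjusted p = 1.49e-05), Ncoa4 by -2.09 (SE 0.28, adjusted p = 4.96e-07) and the haem synthesis gene Urod by -1.51 (SE 0.44, adjusted p = 0.0205). Lrp1 was higher by 1.95 (SE 0.40, adjusted p = 0.000412), the lysosomal cation channel Mcoln1 by 1.92 (SE 0.67, adjusted p = 0.0457) and Cisd2 by 0.69 (SE 0.25, adjusted p = 0.0471). Cp and Urod each lost their call in 8 of 18 other settings. Without unimmunized mouse 1 or 2 the adjusted p was 0.507 and 0.151 for Cp and 0.0592 and 0.129 for Urod, and Urod also missed without immunized mouse 1 (0.259) and in DESeq2 (0.115). Lrp1 did not pass without unimmunized mouse 1 (2.34, adjusted p = 0.0797). Mcoln1 lost its call or its direction in 14 of 18 other settings, including without either immunized mouse (adjusted p = 0.324 and 0.104), and Cisd2 in 13, including without either immunized mouse (0.33 and 0.149) or unimmunized mouse 1 (0.675). With the mouse as a block Mcoln1 and Cisd2 no longer passed (adjusted p = 0.0576 and 0.0515), and Mcoln1 turned to -2.65 without unimmunized mouse 1.

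Inflammatory macrophage-like cells, marked by Nos2, Acod1 and Saa3, formed libraries in the immunized mice only, of 22 and 377 cells, and were compared there with classical monocyte-like cells. Of the 9 genes 5 were higher and 1 lower, where 7.88% of all genes were called in either direction, and the median was 1.61 against -0.0223 over all genes. Tfrc was higher by 2.21 (SE 0.49, adjusted p = 0.00197), Fth1 by 1.83 (SE 0.31, adjusted p = 6.53e-05) and Hmox1 by 1.62 (SE 0.32, adjusted p = 0.000518). Slc11a1 was higher by 1.61 (SE 0.31, adjusted p = 0.000379), Blvrb by 1.37 (SE 0.35, adjusted p = 0.00742), and Spic was lower (-1.83, SE 0.58, adjusted p = 0.0391).

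The exporter, the haem transporter and the light ferritin chain did not pass there, with Slc40a1 at 2.15 (SE 1.6, adjusted p = 0.556), Slc48a1 at 0.79 (SE 0.31, adjusted p = 0.12) and Ftl1 at 0.54 (SE 0.26, adjusted p = 0.262). With 2 libraries an arm, the calls leaned on single mice. Without immunized mouse 2, 3 of the 9 passed, and Hmox1 did not (1.33, adjusted p = 0.102). Tfrc passed neither without immunized mouse 1 (1.66, adjusted p = 0.0787) nor without immunized mouse 2 (3.06, adjusted p = 0.12), and Spic missed in both cases too (-1.35, adjusted p = 0.272, and -2.65, adjusted p = 0.522).

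Among the 57 further genes 11 were higher and 1 lower, where 7.88% of all genes were called in either direction and 4.49% higher. The cystine importer gene Slc7a11 was higher by 5.64 (SE 0.57, adjusted p = 7.42e-09), Cp by 3.34 (SE 0.72, adjusted p = 0.00155), Srxn1, which repairs oxidized peroxiredoxins, by 3.32 (SE 0.58, adjusted p = 0.000117), the iron importer gene Slc39a14 by 2.14 (SE 0.58, adjusted p = 0.013) and the glutathione synthesis gene Gclm by 2.09 (SE 0.31, adjusted p = 6.11e-06). In all, 5 of the 6 NRF2 targets outside iron handling were higher. Hfe was lower (-1.71, SE 0.35, adjusted p = 0.000877). Without immunized mouse 2 neither Srxn1 (3.15, adjusted p = 0.33) nor Hfe (-2.08, adjusted p = 0.116) passed. Slc39a14 passed neither without immunized mouse 1 (2.27, adjusted p = 0.0691) or 2 (1.56, adjusted p = 0.837) nor in DESeq2 (2.15, adjusted p = 0.256).

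Between classical and nonclassical monocyte-like cells none of the 9 genes passed (edgeR, adjusted p = 0.544 to 1), where 1.79% of all genes were called, and none had an unadjusted p under 0.05. DESeq2 also called none of them. Slc11a1 came nearest, at -0.63 (SE 0.33, adjusted p = 0.544). Of the further genes, Tspo, a mitochondrial outer membrane protein that binds porphyrins, was higher in classical cells (0.77, SE 0.18, adjusted p = 0.0092), and Hfe (-1.48, SE 0.23, adjusted p = 2.8e-05) and Nfe2l2, which encodes NRF2 (-0.63, SE 0.16, adjusted p = 0.0189), were lower. The Nfe2l2 call was lost in 10 of 18 other settings, DESeq2 (adjusted p = 0.126) and each mouse left out (-0.76 to -0.57, adjusted p = 0.0767 to 0.181) among them. Tspo did not pass without unimmunized mouse 1 (0.76, adjusted p = 0.175) or 2 (0.80, adjusted p = 0.0782).

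Immunization was compared as the mean of the within-type differences over the 13 types that had libraries in all 4 mice. Of the 9 genes 2 were higher in immunized mice and none was lower, where 9.84% of all genes were called higher and 12.5% in either direction, so the count of 2 was close to the share over all genes. Blvrb was higher by 0.92 (SE 0.13, adjusted p = 1.59e-06) and Fth1 by 0.58 (SE 0.08, adjusted p = 4.31e-06), on a median of 0.056 over all genes. The fit counts the 13 libraries of a mouse as independent, so these SEs and p values do not measure the spread between mice. Each capture holds cells of the same 4 mice, so the captures are not independent estimates of the difference. Both gave these 2 genes the same direction, with Blvrb at 0.96 (SE 0.15) and 0.84 (SE 0.17) and Fth1 at 0.47 (SE 0.11) and 0.65 (SE 0.09) in captures 1 and 2. Cells of the immunized mice also held more UMIs, and UMIs per cell and immunization cannot be told apart here.

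The other 7 genes did not pass. The values were 0.48 for Slc11a1 (SE 0.22, adjusted p = 0.149), 0.24 for Hmox1 (SE 0.19, adjusted p = 0.507), 0.18 for Ftl1 (SE 0.07, adjusted p = 0.106), 0.14 for Slc48a1 (SE 0.16, adjusted p = 0.723) and -0.48 for Spic (SE 0.31, adjusted p = 0.375). Slc40a1 (-0.68) and Tfrc (-0.01) had an adjusted p of 1, on groups without UMIs. With 2 mice per condition these tests detect large shifts only, and a value that missed the threshold is not shown to be equal between conditions.

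Within types the levels of Blvrb in C1q macrophage-like cells were 352 and 359 CPM in the immunized against 165 and 114 CPM in the unimmunized mice, and in interferon-high monocyte-like cells 143 and 271 against 70.8 and 67.2 CPM. Fth1 in C1q macrophage-like cells was at 11543 and 11348 CPM against 8840 and 6722 CPM, and in migratory dendritic-like cells at 4088 and 4334 against 2626 and 1753 CPM. Both immunized mice lay above both unimmunized mice in 10 of 13 types for Fth1 and in 9 for Blvrb. Over all gene and type pairs the share was 15.8%. All types come from the same mice, so separations in different types are not independent repeats. The share per pair is therefore no test of these counts. In migratory dendritic-like cells Blvrb went the other way, with 88 and 104 CPM in the immunized and 133 and 197 CPM in the unimmunized mice.

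For the other genes fewer types separated. Hmox1 lay above in 4 types (MSM-like, TBM-like, C1q macrophage-like and Cd209a dendritic-like) and below in 2 (type 1 dendritic-like and NK-like). Slc11a1 lay above in 5 and below in 1, Ftl1 above in 3 and below in 2, and Tfrc above in 1 and below in 4. Spic lay below in 7 types, TBM-like, C1q macrophage-like and all 3 monocyte types among them, and above in 1. Of all pairs, 16% lay below. Here too the types share the same mice and are not independent repeats. Slc40a1 separated in none and Slc48a1 was below in 2.

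Tested type by type with edgeR, 1 of the 117 pairs of gene and type passed, Blvrb in interferon-high monocyte-like cells (1.67, SE 0.41, adjusted p = 0.014). In that type alone, 2.4% of all genes passed. It no longer passed without unimmunized mouse 1 (adjusted p = 0.738) or 2 (0.164), nor in capture 2 alone (1.57, adjusted p = 0.0828). With the mouse as a block 6 pairs passed: Blvrb in interferon-high monocyte-like cells (1.66, adjusted p = 0.000905) and in C1q macrophage-like cells (1.44, SE 0.32, adjusted p = 0.0107), Fth1 in migratory dendritic-like cells (1.06, SE 0.25, adjusted p = 0.0203) and in B cell-like cells (1.14, SE 0.25, adjusted p = 0.0465), and, lower, Spic in classical (-2.24, SE 0.42, adjusted p = 0.00533) and interferon-high monocyte-like cells (-1.35, SE 0.38, adjusted p = 0.0245). That block takes differences between mice out of the error and pairs no mouse across conditions. The share over all genes was not computed for it, so the 6 pairs are no result about these genes. No interaction of immunization with type passed in the 117 edgeR tests (lowest adjusted p = 0.384, with 10 unadjusted p under 0.05), so no effect is shown to differ between types.

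**Figure D4:**
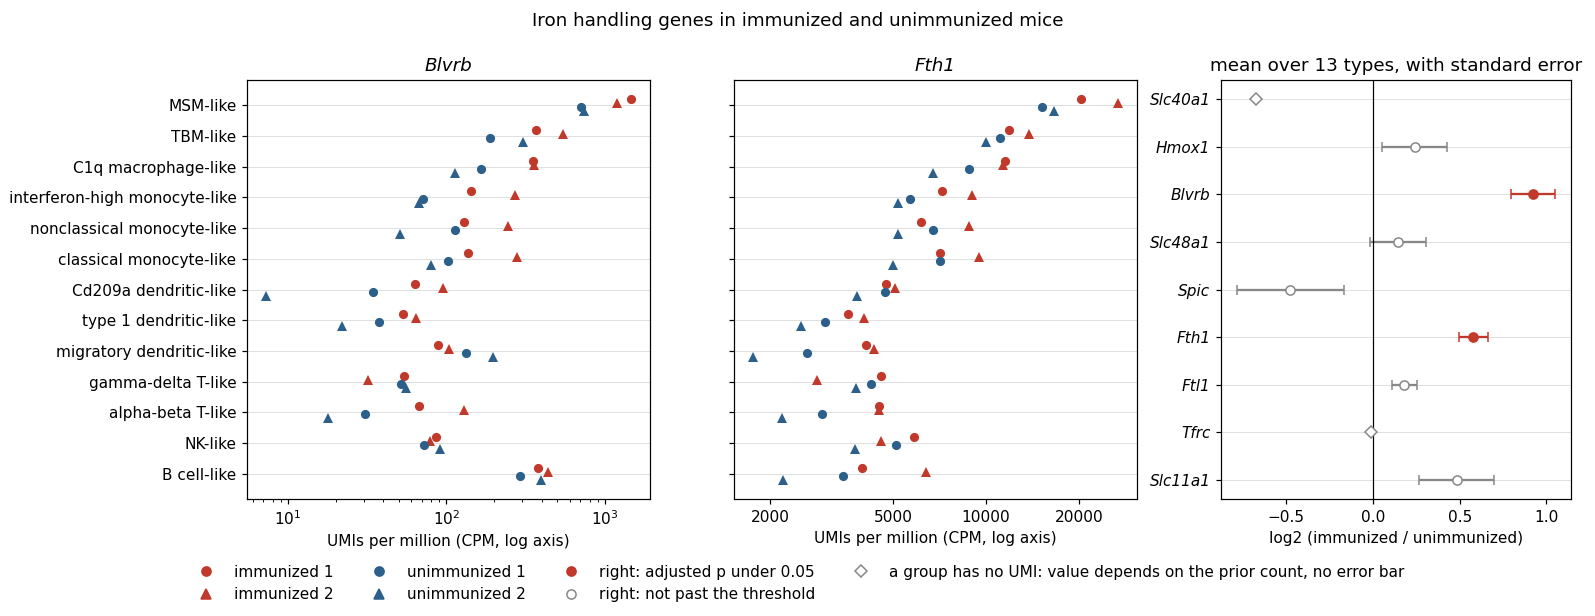
Blvrb and Fth1 in CPM for each cell type and mouse, coloured by immunization, and the mean log2 fold change of immunized against unimmunized mice over 13 types for the 9 genes with bars of 1 SE, with diamonds where a group held no UMI. Blvrb at 0.92 and Fth1 at 0.58 are the 2 filled points.

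Of the 57 further genes 7 were higher in immunized mice and 1 was lower on this mean over types, a share near the 12.5% of all genes called. Haptoglobin, Hp, was higher by 1.30 (SE 0.29, adjusted p = 0.00176) but turned to -0.37 without immunized mouse 1. Hif1a, the oxygen-sensing transcription factor, was higher by 0.63 (SE 0.17, adjusted p = 0.0114), Tspo by 0.61 (SE 0.07, adjusted p = 1.58e-07) and the haem synthesis gene Alas1 by 0.58 (SE 0.12, adjusted p = 0.0008). Gclc, which starts glutathione synthesis, was lower (-0.70, SE 0.19, adjusted p = 0.00967). The Hif1a call was lost in 7 of 18 other settings, with 0.17 (adjusted p = 0.442) without immunized mouse 2, 1.47 (0.081) without unimmunized mouse 1 and 0.63 (0.0804) without unimmunized mouse 2. Alas1 did not pass without immunized mouse 1 (0.58, adjusted p = 0.0564), nor Gclc without immunized mouse 2 (-0.59, adjusted p = 0.0514) or unimmunized mouse 1 (-0.28, adjusted p = 0.537).

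Across the 57 libraries each gene had its own closest partners among 7777 genes with a mean of at least 10 CPM, by Pearson's r of log2(CPM + 5). These values describe libraries that share mice and depth. Hmox1 was closest to Prxl2b (r = 0.871), Ninj1 (0.863) and Fth1 (0.850), and Blvrb to Ninj1 (0.795), Pkig (0.738) and Ehd1 (0.737). Fth1 was closest to the lysosomal protease gene Ctsl (0.855), Hmox1 (0.850) and Clec4n (0.846), and Ftl1 to Vamp8 (0.939), Bri3 (0.903) and Gabarap (0.894). Hmox1 and Fth1 were each among the 3 closest of the other, and only Fth1 held an iron-responsive element match in the transcript searched.

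The remaining genes had looser or different company. Slc40a1 was closest to Cxcr2 (r = 0.748), a neutrophil chemokine receptor, Cd33 (0.732) and Ppp1r2 (0.719). Spic was closest to Tmem86a (0.769), Ms4a7 (0.719), which is a marker of the TBM gate, and Apobec1 (0.719). Slc11a1 went with Pilrb2 (0.869), Pilra (0.855) and Tgfbi (0.822). For Slc48a1 the highest value was 0.604 (Hnrnph2, then Gm15417 at 0.60 and Nat9 at 0.594) and for Tfrc 0.585 (Vcpkmt, then Slc25a40 at 0.582 and H2afx at 0.579).

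RefSeq promoter windows on GRCm38.p6, from 250 bases before to 50 after a gene's start, could be matched for 6 of the 9 genes (Blvrb, Spic, Fth1, Ftl1, Tfrc and Slc11a1). The antioxidant response letters TGACNNNGC, held by 12.4% of 32851 windows, and the longer Maf-type element, held by 0.387%, were in none of them on either strand. The PU.1 and Spi-C core GAGGAA occurred once, in the Slc11a1 window, and is held by 28.3% of all windows. These matches describe letters in a short window and say nothing of binding.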

How the data were processed

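The authors aligned the mRNA reads to mm10 and counted UMIs with Cell Ranger 4.0.0, per the labels and methods, and joined the 2 captures with its aggr step. Tag counts, for hashtags and antibodies, came from CITE-seq-count. The deposited values are raw counts and were used unchanged. 621 barcode sequences occurred in both captures while the tag tables carry no capture number, so those 1242 of 18662 barcodes were left out. Cells with over 25% mitochondrial UMIs were removed, and a mouse was assigned where 1 hashtag held at least 80% of at least 10 hashtag counts, which left 3449 of 15588 barcodes without one. Doublets within 1 mouse were not removed.

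Per cell, log-normalized levels of each type's markers, scaled by their SD, were averaged into a score in SDs from the median cell. A cell joined the type of its highest score at 1 SD or more and 0.2 SD above the next, with at least 3 markers detected (2 for MSM-like). Cells with 2 MSM markers were barred from the TBM-like and C1q macrophage-like gates. In all, 1434 cells lay near a limit. Libraries of at least 5 cells, of 49272 to 15803229 UMIs, were fitted together with edgeR 4.0.16 (R 4.3.3, TMM, filterByExpr, quasi-likelihood test, 1 mean per type and condition), with Benjamini-Hochberg adjustment at 0.05. The SE is the log2 fold change divided by the root of F. The spread was estimated for each gene over all libraries together, and the common dispersion over genes was 0.0295. The reported fit treats libraries as independent. All types of 1 mouse are from 1 animal, and a fit with the mouse as a block within its condition was an alternative. That block pairs types within a mouse, but no mouse is in both conditions. For immunization it pairs nothing and takes differences between mice out of the error. The fit was tested on simulated counts drawn independently for each library. They held no effect of the mouse, so that test does not bear on libraries that share an animal.

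Genes named are the 9, up to 5 of the further genes with the largest rise and fall in each comparison, and the 3 closest genes by correlation. Some genes that met this rule are not reported here. The 9 genes, the lists and the markers were chosen with earlier results of these data known. Intervals are exact binomial at 95% over the pooled cells of a condition, and a count of 0 is given the limit of 3 counts. The alternatives were DESeq2 1.42.0, no count filter, HTODemux of Seurat 5.3.0, Leiden clusters (scanpy 1.11.5), Scrublet, stricter limits, each capture alone and each mouse left out.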

Additional observations from a re-analysis of the deposited data

Results flagged for a closer look

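Cells outside the 15 types included those with at least 3 of 5 genes led by Il22ra2 (with 1300017J02Rik, Cd200, Pla2g2d and Prg3), 458 and 170 cells in immunized mice 1 and 2 and 331 and 86 in unimmunized mice 1 and 2, chosen after the clusters of ungated cells had been seen, so its values are a description with no test. They entered no comparison above. Hmox1 averaged 70.4 CPM in the immunized mice (63.3 and 77.4 CPM, against 44.2 and 58.9 CPM in the unimmunized mice). Blvrb averaged 252 CPM (229 and 276 against 137 and 215 CPM). Fth1 averaged 28199 CPM (25684 and 30714 against 16043 and 15463 CPM) beside 28277 and 29938 CPM in inflammatory macrophage-like cells. Ftl1 averaged 10080 CPM (9941 and 10219 against 7560 and 7986 CPM). In each of these the immunized mice lay above the unimmunized mice, as did 9.33% of 10782 genes with at least 10 UMIs in these cells. Tfrc lay below (1.11 and 2.06 against 4.53 and 4.71 CPM, on 3, 2, 8 and 2 UMIs). So did Slc11a1 (20.36 and 19.6 against 20.39 and 23.6 CPM), where mouse 1 of each condition was nearly level. Of the 10782 genes, 49.2% lay below. Slc40a1, Slc48a1 and Spic overlapped between conditions.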

How the results depend on the processing

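The 9 genes were recomputed under 18 other settings, of which leaving out the neutrophil-like libraries was chosen after seeing the data. Hmox1, Blvrb, Spic, Fth1, Ftl1 and Slc40a1 in MSM-like against other cells passed in all of them, as did Hmox1 and Blvrb in TBM-like against MSM-like cells and Blvrb and Fth1 by immunization. With 1 mouse left out, the counts of genes passing ran from 6 to 8 for MSM-like, 3 to 7 for TBM-like, 4 to 5 for TBM-like against MSM-like, 3 to 6 for inflammatory against classical, 2 to 3 for immunization and 0 to 13 of 117 within types. A lone mouse in an arm is then assumed to vary like the other groups.

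With the mouse as a replicate block, the count within types went from 1 to 6. In these tests the block takes differences between mice out of the error and pairs nothing across conditions. Leiden clusters gave 3 genes for TBM-like, 0 for inflammatory against classical and 2 within types, and 5 of 9 genes then kept their highest type. Scrublet removal gave 2 for TBM-like. Capture 1 alone gave 2 for TBM-like against MSM-like cells and 2 within types, and capture 2 alone 0 within types. Without the count filter, immunization called 4 genes and 18 pairs passed within types. The share over all genes was not computed for these settings, so a higher count is no result about the 9 genes.

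Directions turned as follows. In TBM-like against other cells, Slc40a1 with 1 mouse left out ranged from -0.57 without unimmunized mouse 2 to 5.67 without unimmunized mouse 1, and was -2.29 with Leiden clusters, -1.71 in capture 2 and -0.21 after Scrublet removal, and Leiden clusters turned Spic to -7.36 and Fth1 to -0.50. In that setting TBM-like cells came from immunized mouse 2 alone (25 cells). With 1 mouse left out, Mcoln1 between TBM-like and MSM-like cells ranged from -2.65 without unimmunized mouse 1 to 4.54 without immunized mouse 1, and over all settings it reached 6.54. Against classical cells, Leiden clusters turned Hmox1 to -4.26, Cp to -1.04, Slc39a14 to -1.42 and Gclm to -2.96, and HTODemux turned Tfrc to -0.59. Under both, inflammatory cells included an unimmunized library of 12 cells, so the comparison spanned both conditions. With 1 mouse left out, Hp by immunization ranged from -0.37 without immunized mouse 1 to 3.70 without unimmunized mouse 1. For the remaining changes the cause was not tested.

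Limits: 2 mice per condition, few MSM-like and TBM-like cells in single mice, low depth in MSM-like cells, and more UMIs per cell in the immunized mice. At these counts Slc40a1 and Tfrc cannot show small differences.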
